A study of Mus musculus with 9 samples.

Results

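The genes examined here encode 3 receptor tyrosine kinase systems and their ligands: *Met*, its ligand *Hgf* and its relative *Mst1r*; the TAM receptors *Axl*, *Mertk* and *Tyro3* with their ligand *Gas6*; and the collagen receptors *Ddr1* and *Ddr2*. They were taken by gene symbol, giving 9 of the 55276 symbols in the table, and all 9 entered the 17672 genes that were tested. RNA was sequenced from PPTR cells, a mouse intrahepatic cholangiocarcinoma line and all groups share its alleles, among them the *Prom1CreERT2* driver, which acts in *Prom1*-expressing cells, and the *Rosa-ZsGreen* reporter. The 3 groups were control cells, labelled WT and called Vcam1ctrl here, and Vcam1KO1 and Vcam1KO2, each of which is 1 single-cell clone made with CRISPR/Cas9 and a guide against *Vcam1*, the gene of a cell adhesion molecule. Each group had 3 libraries, made from different passages of cells grown as monolayers without treatment, so that a clone is a single line measured 3 times. The comparison with the control shows how these clones differ from control cells. With 1 line per clone, an effect of the *Vcam1* guide and a difference between lines cannot be told apart.

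MET is the receptor of hepatocyte growth factor (HGF), which mesenchymal cells of the liver secrete and epithelial cells sense, and RON, the product of *Mst1r*, is the receptor of macrophage-stimulating protein. AXL, MERTK and TYRO3 bind GAS6, a vitamin K-dependent protein that bridges the receptors to phosphatidylserine on dying cells; MERTK is best known from macrophages and AXL from mesenchymal-like tumour cells. DDR1 and DDR2 bind triple-helical collagen, and DDR1 is typical of epithelial cells while DDR2 is typical of fibroblasts and activated stellate cells.

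The libraries held between 53415907 and 125223073 counts, so that 3 counts, taken as the limit of detection, equalled 0.0239 to 0.0554 CPM, the unit of all levels here, in which each library is scaled to the same total. *Vcam1* itself was at 266 ± 56.5 CPM (SD, n = 3) in Vcam1ctrl, 107 ± 19.1 in Vcam1KO1 and 100 ± 17.9 in Vcam1KO2, a fall of its messenger RNA in both clones (edgeR adjusted p = 0.000347 and 0.000293) that left it detected. The study reported that both clones had lost Vcam1 expression, by quantitative RT-PCR and by flow cytometry, which are measures other than the counts used here. No pair of libraries of a group agreed within sampling noise. Replicate 3 of Vcam1KO1 stood apart from the others of its clone, with a chi-square per degree of freedom over genes of 268 and 317 against 40.6 between the other two, and replicate 3 of Vcam1KO2 did so at 177 and 121 against 37.9. Between pairs of control libraries this value was 97.5 to 184, so the control libraries also differed from each other. Of 8 biliary epithelial markers, 6 fell in both clones, among them keratins and *Epcam*, *Spp1* rose in both and *Sox9* did not pass in either. Of all tested genes, 37.7% passed in the same direction in both clones. *Krt8* fell from a mean of 5377 CPM in Vcam1ctrl to 0.130 in Vcam1KO1 and 0.405 in Vcam1KO2, and *Cdh1* from 533 to 1.34 and 0.525. Together, 6 hepatocyte markers held 252 to 440 CPM in Vcam1ctrl, 1.57 to 3.02 in Vcam1KO1 and 0.222 to 0.497 in Vcam1KO2. Most of this in Vcam1ctrl was *Hnf4a*, at a mean of 226 CPM, and *Ttr*, at 79.3, while *Alb* was at 10.2. The summed level of 8 fibroblast and stellate markers was 154 to 313 CPM in Vcam1ctrl, 8430 to 10223 in Vcam1KO1 and 4654 to 5609 in Vcam1KO2, most of it *Col1a1* in the clones, while *Lrat*, a defining stellate gene, was at or under 3 counts in all libraries. In bulk RNA, fewer cells of a type and less RNA per cell cannot be told apart.

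The 9 genes covered a wide range of levels when counts were divided by transcript length. In Vcam1ctrl the mean level in CPM per kilobase was 103 for *Gas6*, 91.6 for *Axl*, 56.7 for *Ddr1*, 29.0 for *Met*, 12.2 for *Ddr2*, 1.53 for *Tyro3*, 1.19 for *Hgf*, 0.145 for *Mst1r* and 0.0211 for *Mertk*. Control cells therefore held mainly *Gas6*, *Axl* and *Ddr1*, whose libraries overlapped with their neighbours in this order, as did those of *Tyro3* and *Hgf*. In Vcam1KO1 the order on the same scale was *Gas6* at 479, *Axl* at 94.4, *Ddr1* at 68.4, *Ddr2* at 68.2, *Met* at 5.67, *Tyro3* at 2.22, *Mertk* at 1.53, *Hgf* at 0.178 and *Mst1r* at 0.0613. *Ddr1* and *Ddr2* overlapped there, and so did the neighbours from *Met* to *Mertk*. In Vcam1KO2 the order was *Axl* at 94.7, *Ddr2* at 90.7, *Gas6* at 74.6, *Ddr1* at 69.2, *Met* at 17.2, *Tyro3* at 3.10, *Hgf* at 0.733, *Mertk* at 0.279 and *Mst1r* at 0.0095 CPM per kilobase. The libraries of the first 4 genes overlapped with their neighbours among these 4, and *Gas6* lay above *Ddr2*, at 74.6 against 69.7, when the longest transcript was used as the length.

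**Figure D1:**
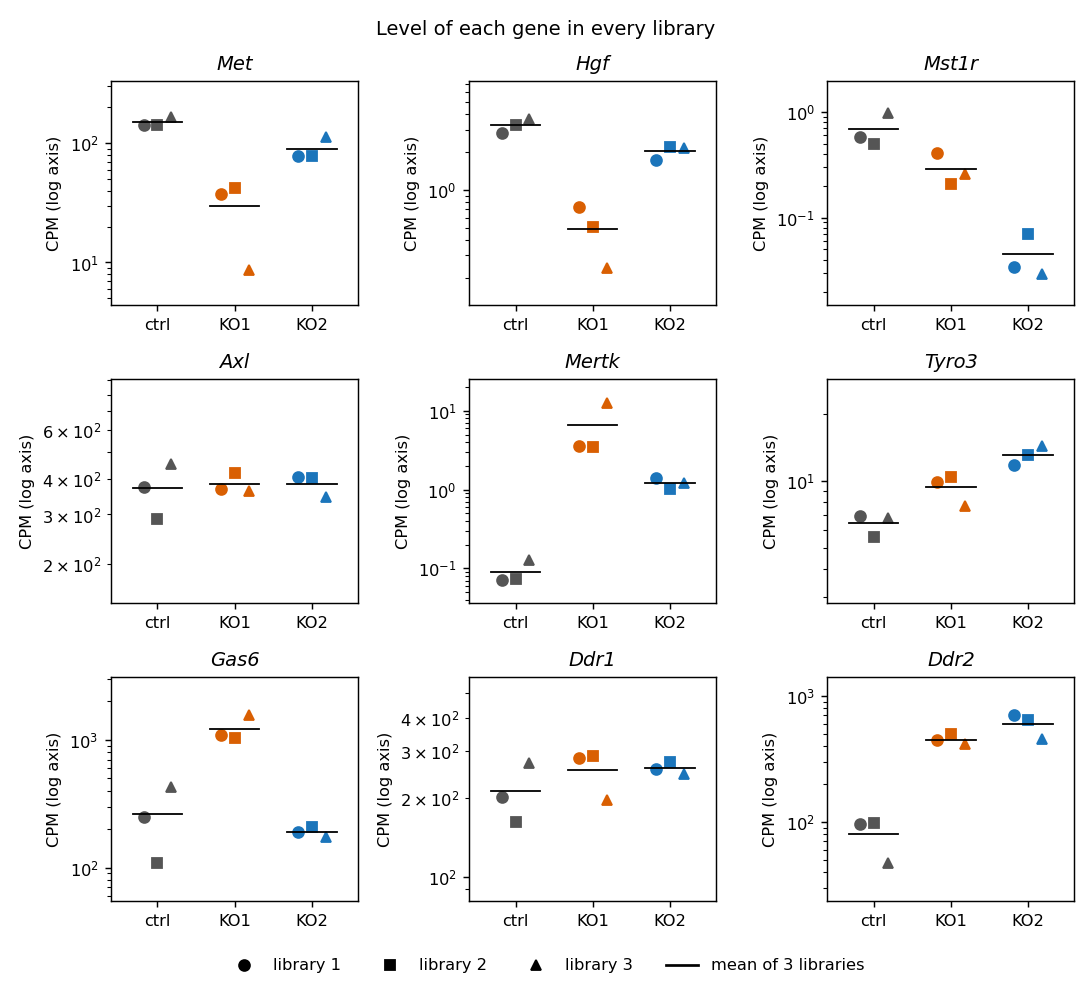
Level of each of the 9 genes in CPM (log axis) in the 3 libraries of Vcam1ctrl, Vcam1KO1 and Vcam1KO2, with points for libraries and a bar for the mean. The groups overlap for *Axl* and *Ddr1*, *Ddr2* and *Mertk* are higher in both clones, and *Gas6* is higher in each library of Vcam1KO1, at 1024 CPM or more, than in any other library.

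Against Vcam1ctrl, 7 of the 9 genes passed the threshold of 0.05 on the adjusted p in Vcam1KO1, beside 59.9% of all tested genes. Of these 4 were higher and 3 lower, as were 29.9% and 30.0% of all genes. In Vcam1KO2 4 passed, beside 51.4% of all genes, with 3 higher (25.3% of all genes) and 1 lower (26.1%). The same 4 genes, *Mst1r*, *Mertk*, *Tyro3* and *Ddr2*, passed in the same direction in both clones, which 37.7% of all genes did. *Mertk* entered the test through its counts in the clones alone, so its calls against the control carry the reservation given with its values. Between the clones 6 of the 9 passed, beside 38.7% of all genes, with 3 higher in Vcam1KO1 (20.2% of all genes) and 3 lower (18.5%). The libraries of the groups did not overlap for 7 genes in Vcam1KO1 against the control, where 66.0% of all genes did not, for 6 in Vcam1KO2, where 62.1% did not, and for 6 between the clones, where 54.9% did not. The median log2 fold change of the 9 genes was 0.27 in Vcam1KO1, 0.05 in Vcam1KO2 and −0.02 between the clones, against 0.02, 0.00 and 0.04 over all tested genes. Changes were common in these clones, so these counts say nothing particular about the 9 genes, and the values of each gene follow. The comparisons of the clones with the control share the 3 control libraries.

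**Figure D2:**
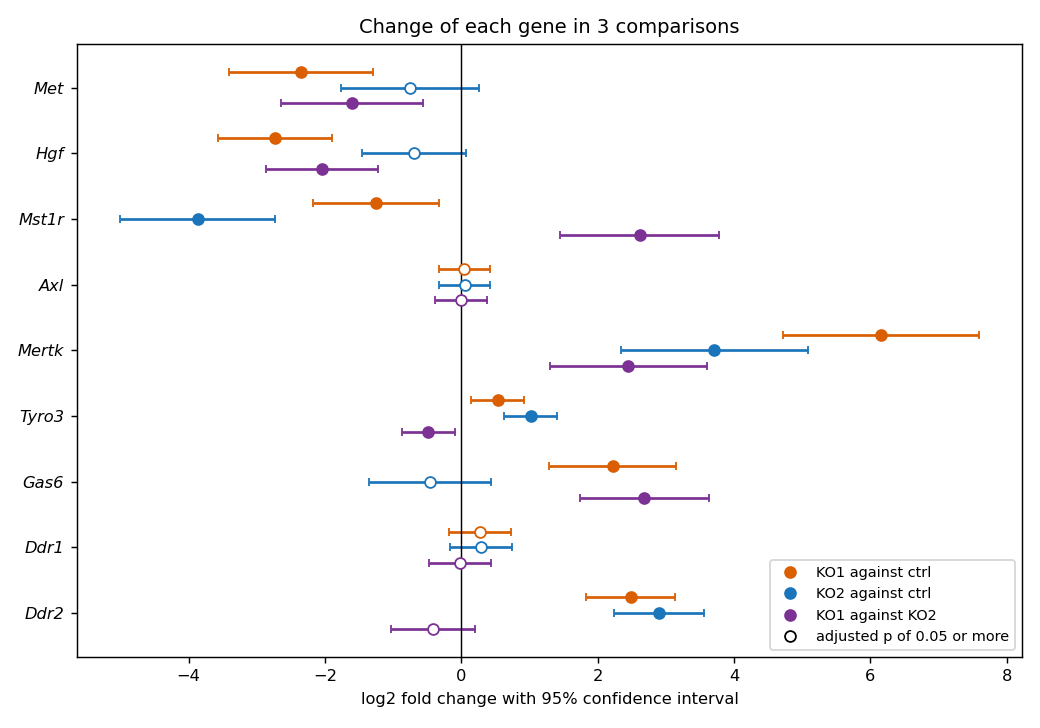
Log2 fold change of each gene with its 95% confidence interval from edgeR for Vcam1KO1 against Vcam1ctrl, Vcam1KO2 against Vcam1ctrl and Vcam1KO1 against Vcam1KO2, with open points for an adjusted p of 0.05 or more. *Ddr2* sits at 2.48 and 2.89 in the clones, *Gas6* at 2.22 and −0.46, and *Axl* and *Ddr1* have intervals that cover 0 in all 3 comparisons.

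*Hgf* (ENSMUSG00000028864.7, chr5:16553495-16620152, plus strand, GRCm38), the ligand of MET, fell in Vcam1KO1. Its libraries held 2.86, 3.30 and 3.68 CPM in Vcam1ctrl, 0.734, 0.501 and 0.239 in Vcam1KO1, and 1.73, 2.21 and 2.14 in Vcam1KO2. The 3 groups did not overlap, with Vcam1KO1 lowest and Vcam1KO2 in between. Against the control the log2 fold change was −2.73 (SE 0.37, edgeR adjusted p = 0.000178) in Vcam1KO1. In Vcam1KO2 it was −0.69 (95% CI −1.46 to 0.08, edgeR adjusted p = 0.119), which did not pass although every library lay under every control library. Vcam1KO1 was lower than Vcam1KO2 by a tested difference of −2.04 (SE 0.36, edgeR adjusted p = 0.00238).

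*Met* (ENSMUSG00000009376.15, chr6:17463800-17573980, plus strand), the receptor of HGF, moved alongside its ligand. The control libraries held 142, 143 and 167 CPM, those of Vcam1KO1 37.4, 42.5 and 8.72, and those of Vcam1KO2 78.5, 78.0 and 112. All libraries of Vcam1KO1 lay under those of Vcam1KO2, which lay under those of Vcam1ctrl. *Met* fell in Vcam1KO1 with a log2 fold change of −2.35 (SE 0.47, edgeR adjusted p = 0.00199). In Vcam1KO2 the value was −0.75 (95% CI −1.77 to 0.27, edgeR adjusted p = 0.194). The difference between the clones was −1.60 (SE 0.46, edgeR adjusted p = 0.0223), and −1.43 with an edgeR adjusted p of 0.0678 without replicate 3 of Vcam1KO2. Replicate 3 of Vcam1KO1 held the lowest *Met* and *Hgf*, and replicate 3 of Vcam1KO2 the highest *Met* of its clone. Without replicate 3 of Vcam1KO1, *Met* and *Hgf* in Vcam1KO2 passed against the control at nearly the same size, −0.75 (edgeR adjusted p = 0.00311) and −0.69 (edgeR adjusted p = 0.0320).

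The ratio of *Hgf* to *Met*, taken per transcript length within each library, was 0.0380 to 0.0434 in Vcam1ctrl, 0.0224 to 0.0534 in Vcam1KO1 and 0.0361 to 0.0534 in Vcam1KO2. Ligand and receptor differed several-fold between the groups while the ranges of their ratio overlapped. This ratio, like the others given here, does not depend on the scaling of the libraries.

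*Mst1r* (ENSMUSG00000032584.12, chr9:107906873-107920383, plus strand), which encodes RON, was low in all groups and, unlike *Met*, lowest in Vcam1KO2. It had 73, 27 and 77 counts in Vcam1ctrl, 27, 20 and 16 in Vcam1KO1 and 2, 5 and 2 in Vcam1KO2. These are 0.582, 0.498 and 0.974 CPM, then 0.404, 0.209 and 0.255, then 0.0343, 0.0707 and 0.0296. The groups did not overlap, and Vcam1KO2 was the lowest, near the limit of detection. The fall in Vcam1KO2 had a log2 value of −3.87 (SE 0.51, edgeR adjusted p = 0.000183), and from the summed counts alone *Mst1r* was 14.9-fold lower (95% interval 7.70 to 33.2, counting error only). In Vcam1KO1 the fall was −1.25 (SE 0.41, edgeR adjusted p = 0.0250). That call was lost without replicate 3 of Vcam1ctrl (−0.92, edgeR adjusted p = 0.0970), replicate 2 of Vcam1KO1 (−1.05, edgeR adjusted p = 0.0959) or replicate 3 of Vcam1KO1 (−1.17, edgeR adjusted p = 0.0643). Vcam1KO1 exceeded Vcam1KO2 by 2.62 (SE 0.52, edgeR adjusted p = 0.00394).

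A list of 20 genes around MET and RON, from ligand activation to signal transmission and receptor shedding, was read alongside them, and all 20 were tested. In Vcam1KO1 6 were higher, 9 lower and 5 did not pass, and in Vcam1KO2 4 were higher, 8 lower and 8 did not pass. Of the 20, 3 were higher and 7 lower in both clones. Of all tested genes, 29.9% were higher and 30.0% lower in Vcam1KO1, and 25.3% and 26.1% in Vcam1KO2. In both clones 37.7% of all genes passed in the same direction. The median log2 fold change was −0.37 and −0.32, near 0 in size beside the extremes of the list.

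The lowest genes of that list by the mean log2 fold change of both clones were the Kunitz-type inhibitors of the proteases that activate HGF. *Spint2* (HAI-2) held 334, 334 and 401 CPM in the control libraries against 0.0599, 0.0104 and 0.112 in Vcam1KO1 and 1.32, 1.88 and 0.429 in Vcam1KO2. It was nearly lost from both clones, with log2 fold changes of −12.64 (SE 0.69, edgeR adjusted p = 6.35e-07) and −8.20 (SE 0.54, edgeR adjusted p = 2.38e-06). *Spint1* (HAI-1) had 806, 238 and 685 counts in Vcam1ctrl, 1, 0 and 0 in Vcam1KO1 and 0 in each library of Vcam1KO2. Against the floor of 3 counts per library *Spint1* was at least 140.9-fold lower in Vcam1KO2, and the single count gave a ratio of 1505-fold in Vcam1KO1 (95% interval 269.8 to 5.949e+04, counting error only). The clones were both under the limit of detection for *Spint1*, so these unlike figures do not rank them.

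Among the genes of the list that passed in the same direction in both clones, the highest by the mean of their log2 fold changes were *Gab1*, the docking adaptor of MET, and *Lrig1*, a membrane protein that promotes turnover of receptor tyrosine kinases. *Gab1* rose from 17.3, 10.4 and 16.7 CPM in Vcam1ctrl to 64.2, 73.7 and 96.6 in Vcam1KO1 (log2 fold change 2.40, edgeR adjusted p = 1.91e-05) and to 31.9, 28.1 and 24.3 in Vcam1KO2 (0.93, edgeR adjusted p = 0.00625). *Lrig1* rose by 1.92 in Vcam1KO1 and 1.47 in Vcam1KO2 on the log2 scale (edgeR adjusted p = 2.29e-06 and 1.46e-05). *Mst1*, which encodes the ligand of RON, held 11.5, 9.54 and 9.03 CPM in Vcam1ctrl, 1.23, 1.47 and 1.72 in Vcam1KO1, and 10.6, 11.4 and 6.32 in Vcam1KO2. This ligand, named here for its role and after its values were seen, fell in Vcam1KO1 (−2.77, edgeR adjusted p = 1.8e-05), and in Vcam1KO2 its value was −0.09 (95% CI −0.63 to 0.45, edgeR adjusted p = 0.779). Ligand and receptor of the RON pair thus had their lowest levels in different clones.

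The sequences upstream of *Gas6*, *Axl* and *Mertk* are shown because these genes of a single ligand and receptor system behaved differently: a ligand that rose in Vcam1KO1, a receptor whose groups overlapped, and a receptor that was higher in both clones. Each is the 250 bases before a RefSeq transcript start on GRCm38.p6, at chr8:13494536-13494785 (minus strand) for *Gas6*, chr7:25788734-25788983 (minus strand) for *Axl* and chr2:128698665-128698914 (plus strand) for *Mertk*, written 5′ to 3′ on the strand of the gene. Capitals mark GGGCGG or its reverse complement CCGCCC, the GC box.
*Gas6*: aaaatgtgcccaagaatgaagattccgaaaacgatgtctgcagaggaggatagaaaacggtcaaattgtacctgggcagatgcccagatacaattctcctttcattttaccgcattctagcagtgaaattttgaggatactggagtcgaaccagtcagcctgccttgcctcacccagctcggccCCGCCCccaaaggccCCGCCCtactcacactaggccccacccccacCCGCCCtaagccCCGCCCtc
*Axl*: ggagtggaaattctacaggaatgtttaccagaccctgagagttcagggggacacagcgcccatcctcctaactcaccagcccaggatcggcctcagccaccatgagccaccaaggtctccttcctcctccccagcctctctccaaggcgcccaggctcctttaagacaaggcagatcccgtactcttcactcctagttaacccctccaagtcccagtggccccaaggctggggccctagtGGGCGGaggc
*Mertk*: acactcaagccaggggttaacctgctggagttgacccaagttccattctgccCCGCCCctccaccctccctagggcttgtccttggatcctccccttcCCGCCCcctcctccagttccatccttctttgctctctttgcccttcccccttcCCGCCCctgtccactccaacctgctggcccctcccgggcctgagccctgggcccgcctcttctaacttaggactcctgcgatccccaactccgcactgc
The GC box occurred 4 times before *Gas6*, 1 time before *Axl* and 3 times before *Mertk*. It is found in 32.7% of 32851 RefSeq windows of the same length. Neither CAGGTG (or CACCTG; 17.2% of windows), the E-box read by ZEB and SNAI factors, nor the AP-1 motif TGANTCA (6.75% of windows) was in these 3 windows on either strand.

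*Gas6* (ENSMUSG00000031451.6, chr8:13465374-13494490, minus strand) had the largest fitted difference between the clones among the 9 genes. Its libraries held 249, 109 and 429 CPM in Vcam1ctrl, 1088, 1024 and 1550 in Vcam1KO1, and 190, 207 and 173 in Vcam1KO2. Every library of Vcam1KO1 lay above every other library, and those of Vcam1KO2 fell inside the wide range of the control. The rise in Vcam1KO1 had a log2 value of 2.22 (SE 0.41, edgeR adjusted p = 0.00126). In Vcam1KO2 the value was −0.46 (95% CI −1.36 to 0.43, edgeR adjusted p = 0.360). The clones differed by 2.68 (SE 0.42, edgeR adjusted p = 0.00121). The comparison of Vcam1KO2 with the control turned on single control libraries: it was −0.86 (edgeR adjusted p = 0.0217) without replicate 2 of Vcam1ctrl and 0.09 (edgeR adjusted p = 0.850) without replicate 3.

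*Axl* (ENSMUSG00000002602.16, chr7:25757273-25788705, minus strand) was the most abundant of the TAM receptors in every library. It was at 377, 289 and 455 CPM in Vcam1ctrl, 371, 420 and 365 in Vcam1KO1, and 409, 404 and 346 in Vcam1KO2. The groups overlapped throughout. The log2 difference from the control was 0.04 (95% CI −0.33 to 0.42) in Vcam1KO1 and 0.05 (95% CI −0.33 to 0.42) in Vcam1KO2, with edgeR adjusted p values of 0.838 and 0.834, and these intervals leave room for changes of up to 0.42 on the log2 scale. A larger absolute log2 fold change than that of *Axl* was found in 96.6% of the tested genes in Vcam1KO1 and in 95.2% in Vcam1KO2.

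*Mertk* (ENSMUSG00000014361.5, chr2:128698956-128802894, plus strand) was close to the limit of detection in Vcam1ctrl, with 9, 4 and 10 counts. Vcam1KO1 had 240, 329 and 795 counts and Vcam1KO2 81, 72 and 81. In CPM these are 0.0717, 0.0738 and 0.126 in Vcam1ctrl, 3.59, 3.43 and 12.7 in Vcam1KO1 and 1.39, 1.02 and 1.20 in Vcam1KO2. The 3 groups did not overlap, and replicate 3 of Vcam1KO1 stood far above all others. From the summed counts *Mertk* was 68.1-fold (95% interval 45.2 to 108) and 13.4-fold (8.71 to 21.5) higher in the clones than in the control, intervals that cover counting error only. Its log2 fold changes were 6.16 (SE 0.64, edgeR adjusted p = 3.27e-05) and 3.71 (SE 0.61, edgeR adjusted p = 0.000726), given with the reservation that *Mertk* passed the filter on low counts through the clones alone. The clones differed by 2.45 (SE 0.51, edgeR adjusted p = 0.00501), and with limma-voom by 2.12 with an adjusted p of 0.0727. Without replicate 3 of Vcam1KO1 the rise in that clone was 5.26 (edgeR adjusted p = 2.85e-06) and the difference between the clones 1.55 (edgeR adjusted p = 0.00357).

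Since *Mertk* is also a macrophage gene, macrophage and leukocyte markers were read beside it. The summed level of 6 markers was 7.62 to 20.8 CPM in Vcam1ctrl, 9.06 to 11.9 in Vcam1KO1 and 6.996 to 9.63 in Vcam1KO2. Of the 4 that were tested, *Ptprc* and *Csf1r* fell in both clones, where 37.7% of all tested genes passed in the same direction, and *Cd68* passed in neither. *Ptprc* passed the filter on low counts through the control alone, at 0.382 to 0.443 CPM there. In the clones it was near the limit of detection, at no more than 0.0638 CPM in Vcam1KO1 and 0.0685 in Vcam1KO2. *Lyz2* rose in Vcam1KO1, from a mean of 0.114 CPM in Vcam1ctrl to 4.08 (log2 fold change 5.16, edgeR adjusted p = 2.01e-05). That call carries a reservation like that of *Mertk*, since *Lyz2* passed the filter on low counts through Vcam1KO1 alone. In Vcam1KO2 *Lyz2* did not pass (0.94, edgeR adjusted p = 0.143). The part of such cells in the *Mertk* values was not tested. *Clec4f*, which defines Kupffer cells, was at 0 in all libraries.

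*Tyro3* (ENSMUSG00000027298.17, chr2:119797733-119818104, plus strand), the remaining TAM receptor, rose to a smaller extent. It was at 6.98, 5.61 and 6.78 CPM in Vcam1ctrl, 9.88, 10.5 and 7.73 in Vcam1KO1, and 11.8, 13.1 and 14.4 in Vcam1KO2. All clone libraries lay above all control libraries, and the clones did not overlap. The log2 fold change was 1.02 (SE 0.17, edgeR adjusted p = 0.000902) in Vcam1KO2 and 0.53 (SE 0.17, edgeR adjusted p = 0.0227) in Vcam1KO1. The call in Vcam1KO1 was lost without replicate 2 of Vcam1ctrl (0.38, edgeR adjusted p = 0.118), without replicate 1 (0.45, edgeR adjusted p = 0.106) or 2 (0.45, edgeR adjusted p = 0.0823) of Vcam1KO1, and without replicate 1 of Vcam1KO2 (0.49, edgeR adjusted p = 0.0536). The difference between the clones, −0.48 (SE 0.17, edgeR adjusted p = 0.0497), lay at the threshold and ranged from −0.60 to −0.36 with adjusted p values of 0.0340 to 0.127 when each library was left out in turn.

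Taken per transcript length and as a share of the 3 TAM receptors, *Axl* made up 98.1 to 98.6% in Vcam1ctrl, 94.9 to 96.9% in Vcam1KO1 and 95.8 to 97.0% in Vcam1KO2. *Mertk* made up 0.0177 to 0.0260%, 0.751 to 3.13% and 0.231 to 0.315%, and *Tyro3* 1.42 to 1.84%, 1.94 to 2.49% and 2.69 to 3.86%. *Axl* thus remained nearly the whole of the TAM receptor messenger RNA where *Mertk* had risen most. The ratio of *Gas6* to *Axl* per transcript length was 0.601 to 1.51 in Vcam1ctrl, 3.90 to 6.81 in Vcam1KO1 and 0.743 to 0.822 in Vcam1KO2, so that ligand exceeded receptor in every library of Vcam1KO1 and in no library of Vcam1KO2.

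**Figure D3:**
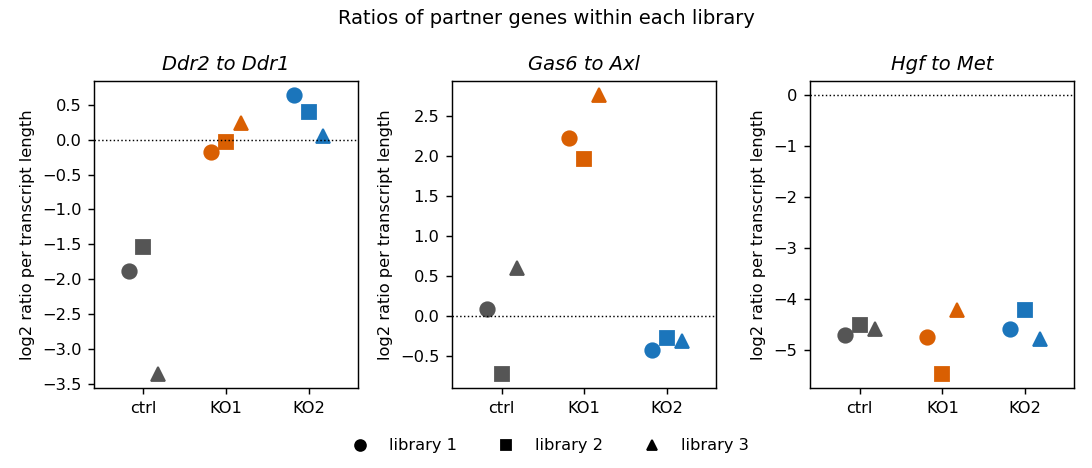
Log2 ratio per transcript length within each of the 9 libraries for *Ddr2* to *Ddr1*, *Gas6* to *Axl* and *Hgf* to *Met*, by group. The *Ddr2* to *Ddr1* ratio is 0.0973 to 0.343 in Vcam1ctrl and 0.884 to 1.56 over the clones, the *Gas6* to *Axl* ratio stands apart in Vcam1KO1, and the *Hgf* to *Met* ratios of the groups overlap.

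A list of 19 genes of GAS6 maturation, TAM ligands, the engulfment machinery and signalling was examined, of which 18 were tested. In Vcam1KO1 12 were higher, 1 lower and 5 did not pass, in Vcam1KO2 10 were higher, none was lower and 8 did not pass, and 8 were higher in both. The shares of all tested genes were 29.9% higher and 30.0% lower in Vcam1KO1, 25.3% and 26.1% in Vcam1KO2, and 37.7% in the same direction in both. The median log2 fold change was 0.83 in Vcam1KO1 and 0.45 in Vcam1KO2, against 0.02 and 0.00 over all tested genes. *Pros1*, protein S and a further vitamin K-dependent ligand of TYRO3 and MERTK, rose from 32.6, 29.0 and 38.9 CPM in Vcam1ctrl to 106, 104 and 73.0 in Vcam1KO1 (log2 fold change 1.49, SE 0.19, edgeR adjusted p = 0.000136) and to 141, 133 and 97.7 in Vcam1KO2 (1.88, SE 0.20, edgeR adjusted p = 4.05e-05). In contrast to *Gas6*, this ligand was higher in both clones, and its libraries overlapped between them. *Socs1*, a suppressor of cytokine signalling that TAM receptors induce in myeloid cells, rose by 1.92 (edgeR adjusted p = 0.00232) and 1.34 (edgeR adjusted p = 0.0169).

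*Ddr2* (ENSMUSG00000026674.9, chr1:169972307-170110762, minus strand) rose in both clones, 5.59-fold in Vcam1KO1 and 7.44-fold in Vcam1KO2. Its libraries held 96.7, 98.2 and 46.7 CPM in Vcam1ctrl, 443, 495 and 412 in Vcam1KO1, and 706, 639 and 452 in Vcam1KO2. All 6 clone libraries exceeded the highest control library at least 4-fold, and the clones overlapped. The log2 fold change was 2.48 (SE 0.29, edgeR adjusted p = 6.68e-05) in Vcam1KO1 and 2.89 (SE 0.29, edgeR adjusted p = 3.47e-05) in Vcam1KO2. The difference between the clones was −0.41 (95% CI −1.03 to 0.20, edgeR adjusted p = 0.261). Larger absolute log2 fold changes were found in 17.6% of the tested genes in Vcam1KO1 and in 12.5% in Vcam1KO2. Markers of fibroblasts and stellate cells, where *Ddr2* is typically found, were read beside it: of the 5 tested, 3 rose in both clones, *Des* passed in neither, and *Dcn*, the gene of decorin, fell in Vcam1KO1 (−4.11, edgeR adjusted p = 0.000222) and was at 0.30 (edgeR adjusted p = 0.645) in Vcam1KO2. Of all tested genes, 37.7% passed in the same direction in both clones. The part of these markers in the result was not tested.

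*Ddr1* (ENSMUSG00000003534.17, chr17:35681567-35704621, minus strand), the epithelial collagen receptor, did not move past the threshold. It was at 201, 162 and 272 CPM in Vcam1ctrl, 283, 287 and 197 in Vcam1KO1, and 256, 274 and 245 in Vcam1KO2, and the groups overlapped. The log2 differences from the control were 0.27 (95% CI −0.19 to 0.73, edgeR adjusted p = 0.277) and 0.29 (95% CI −0.17 to 0.75, edgeR adjusted p = 0.267), and that between the clones was −0.02 (95% CI −0.48 to 0.44, edgeR adjusted p = 0.961). Per transcript length, the ratio of *Ddr2* to *Ddr1* was 0.0973 to 0.343 in Vcam1ctrl, 0.884 to 1.19 in Vcam1KO1 and 1.04 to 1.56 in Vcam1KO2. The control cells thus held mostly *Ddr1* and the clones, on this length, about as much of either receptor. With the longest transcript as the length, *Ddr2* was lower than *Ddr1* in Vcam1KO1, at a mean of 52.4 against 65.9 CPM per kilobase. In Vcam1KO2 the means were 69.7 and 66.7.

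The collagen chains that form ligands of the discoidin receptors were mostly higher in the clones. Of 18 on the list 16 were tested, of which 11 were higher, 3 lower and 2 did not pass in Vcam1KO1, and 10 were higher, 3 lower and 3 did not pass in Vcam1KO2. In both clones 9 were higher and 2 lower, and the median log2 fold change was 1.86 and 1.63. Over all tested genes 29.9% were higher and 30.0% lower in Vcam1KO1, 25.3% and 26.1% in Vcam1KO2, and 37.7% passed in the same direction in both. Collagens were known from earlier results on these libraries to be high in the clones, so the list is not independent evidence of that direction. *Col1a1*, a chain of fibrillar type I collagen that both receptors bind, rose from 107, 136 and 55.0 CPM in Vcam1ctrl to between 7780 and 9204 in Vcam1KO1 (log2 fold change 6.42, SE 0.35, edgeR adjusted p = 6.76e-07) and between 4199 and 5008 in Vcam1KO2 (5.57, SE 0.34, edgeR adjusted p = 1.62e-06). *Col8a1* of the network-forming type VIII collagen rose by 6.78 and 5.88 (edgeR adjusted p = 5.27e-05 and 0.000132). The basement membrane chains *Col4a3* and *Col4a4* went down, *Col4a3* from 56.9, 38.7 and 65.0 CPM to 0.674, 1.07 and 1.84 in Vcam1KO1 and 0.771, 0.665 and 0.0592 in Vcam1KO2. Their log2 fold changes were −5.49 and −6.75 for *Col4a3* (edgeR adjusted p = 7.8e-05 and 4.22e-05) and −4.99 and −6.06 for *Col4a4* (edgeR adjusted p = 0.000159 and 8.66e-05).

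All 15 genes on a list of discoidin receptor effectors were tested. In Vcam1KO1 8 were higher, 4 lower and 3 did not pass, in Vcam1KO2 7 were higher, 5 lower and 3 did not pass, and 7 were higher and 3 lower in both clones. Beside them, 29.9% of all tested genes were higher and 30.0% lower in Vcam1KO1, and 25.3% and 26.1% in Vcam1KO2. The share of all genes that passed in the same direction in both clones was 37.7%. The medians were 0.32 and 0.23, and setting genes at or under 3 counts to their bounds left the medians of all 4 lists as given. The highest was *Lox*, lysyl oxidase, which crosslinks collagen: it rose from 0.629, 1.11 and 0.455 CPM in Vcam1ctrl to 845, 1113 and 703 in Vcam1KO1 (log2 fold change 10.28, SE 0.40, edgeR adjusted p = 1.07e-07) and to 533, 497 and 432 in Vcam1KO2 (9.42, SE 0.38, edgeR adjusted p = 1.85e-07). *Mmp2*, a gelatinase, rose by 3.89 and 2.96 (edgeR adjusted p = 3.24e-05 and 0.000175). *Pard6b*, a cell polarity protein, fell by 3.59 and 4.63 on the log2 scale (edgeR adjusted p = 4.43e-07 and 2.17e-07). *Wwc1*, which encodes the DDR1-binding protein KIBRA, fell by 1.27 and 3.69 (edgeR adjusted p = 0.000863 and 2.42e-06), further in Vcam1KO2 than in Vcam1KO1 by a tested difference of 2.42 (SE 0.23, edgeR adjusted p = 7.95e-05).

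**Figure D4:**
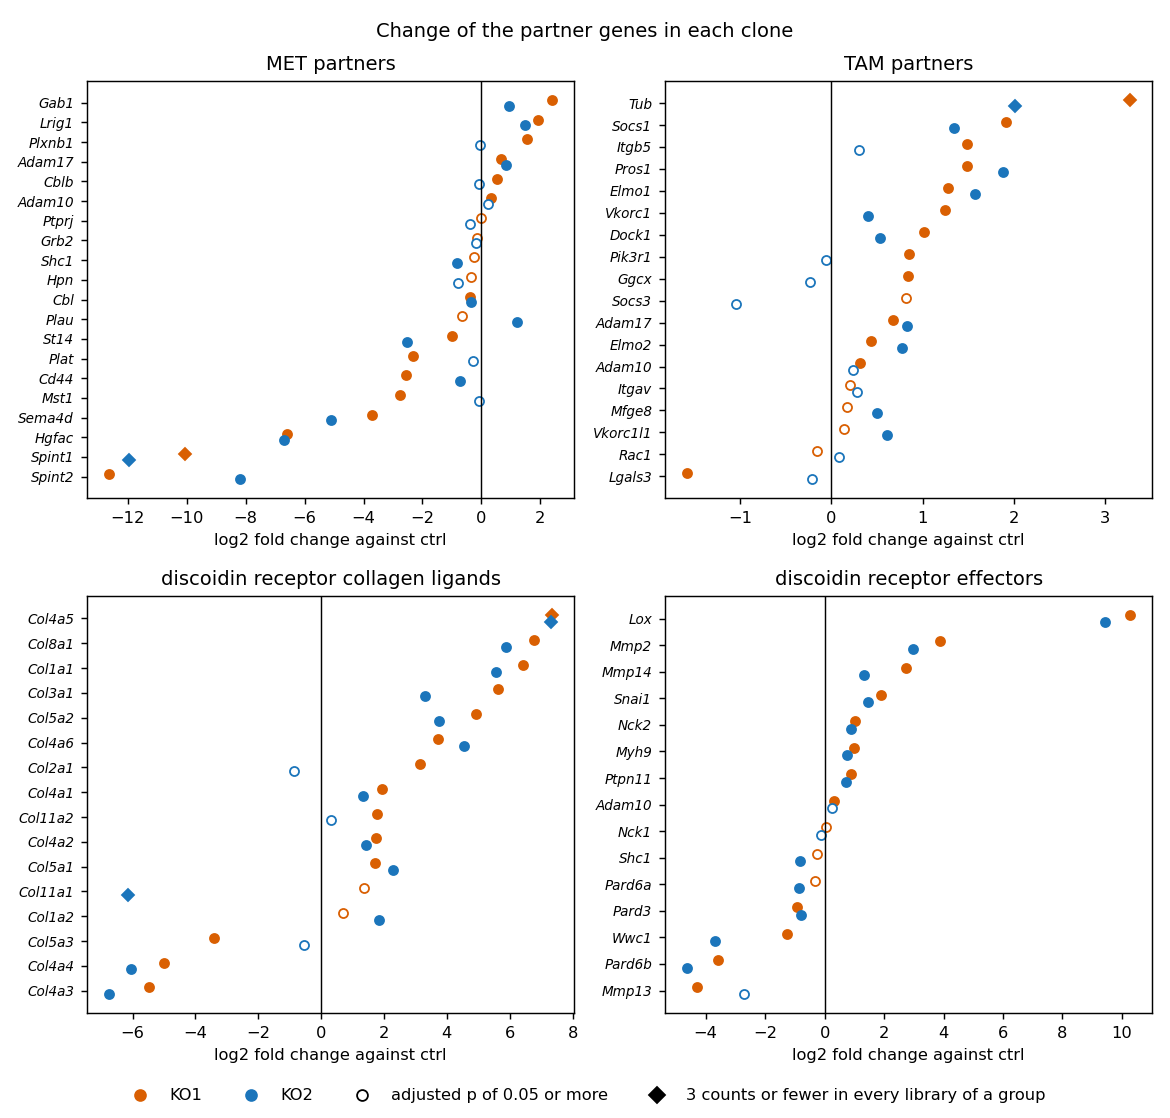
Log2 fold change against Vcam1ctrl in Vcam1KO1 and Vcam1KO2 for the tested genes of the 4 partner lists, with open symbols for an adjusted p of 0.05 or more and diamonds for genes that had at most 3 counts in each library of some group, whose position depends on the prior count. *Spint1* and *Spint2* lie lowest among the MET partners, most TAM partners lie above 0, and *Lox* lies highest among the effectors at 10.28 and 9.42.

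Pooling the clones set 6 libraries against 3. Of the 9 genes 4 passed, beside 43.0% of all tested genes, with 3 higher (21.7% of all genes) and 1 lower (21.2%), and for 6 of 9 the groups did not overlap beside 44.2%. *Ddr2* was higher by 2.70 (SE 0.31, edgeR adjusted p = 0.000122), *Mertk* by 5.40 (SE 1.09, edgeR adjusted p = 0.00339) and *Tyro3* by 0.80 (SE 0.22, edgeR adjusted p = 0.0167), and *Mst1r* was lower at −2.02 (SE 0.72, edgeR adjusted p = 0.0455). The *Mertk* call keeps the reservation that this gene passed the filter on low counts through the clones alone. The pooled call for *Mst1r* did not hold without any 1 of the 3 control libraries, replicate 2 of Vcam1KO1 or replicate 1 or 2 of Vcam1KO2, with adjusted p values of up to 0.155, and that for *Tyro3* was 0.0968 without replicate 2 of Vcam1ctrl. The *Mertk* value was 4.51 (edgeR adjusted p = 0.000701) without replicate 3 of Vcam1KO1. *Met* at −1.34 (edgeR adjusted p = 0.0848), *Hgf* at −1.38 (edgeR adjusted p = 0.0983) and *Gas6* at 1.43 (edgeR adjusted p = 0.201) did not pass, and these are the genes whose clones lay furthest apart beside *Mst1r* and *Mertk*. *Met* passed without replicate 3 of Vcam1KO1 (−1.12, edgeR adjusted p = 0.0253) and without replicate 3 of Vcam1KO2 (−1.65, edgeR adjusted p = 0.0440).

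The genes with the pattern most like each of the 9 were found by the root mean square distance of centred log2 levels over the 9 libraries, searched over genes with a mean of at least 1 CPM. This distance describes these libraries, which share their 3 groups, and carries no test. For *Met* these were *Samd5*, *Dnph1* and *Pik3cd* (0.30 to 0.31), and for *Hgf* they were *Tmem71*, *Pfkp* and *Prelid2* (0.19 to 0.27). For *Mst1r* they were *Vnn1*, *Faah* and *Flrt1* (0.28 to 0.31). The patterns of *Met* and *Hgf* lay 0.35 apart, close to the distance of *Met* from its nearest genes. *Gas6* was nearest to *Car11*, *Tns1* and *Fgfr2* (0.33 to 0.37), *Mertk* to *Xylt1*, *Apba1* and *Kcnip3* (0.34 to 0.41) and *Tyro3* to *Prps2*, *Hnrnph2* and *Fam92a* (0.10 to 0.11). *Axl* lay nearest to *Pigg*, *Sfxn3* and *Nedd4l* (0.08) and *Ddr1* to *Bicc1*, *Cd81* and *Syne2* (0.08 to 0.11), and the distance between these 2 receptors was 0.17. *Ddr2* was nearest to *Fam171b*, *Tril* and *Serpinh1* (0.19 to 0.22), the last being the collagen chaperone HSP47. Among the 9 genes themselves the closest pairs were *Axl* with *Ddr1*, *Tyro3* with *Ddr1* at 0.33 and *Met* with *Hgf*, followed by *Axl* with *Tyro3* at 0.43.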

How the data were processed

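Messenger RNA of PPTR cells was measured in 9 stranded, paired-end libraries, 3 each of Vcam1ctrl, Vcam1KO1 and Vcam1KO2, grouped by their labels. Some alleles that all groups carry are not reported here. The authors pseudoaligned the reads with kallisto 0.46.1 to transcripts of GRCm38 (mm10 in the submitters' processing notes), and the deposited values are estimated counts per gene symbol without normalization. All values were whole numbers and were used as counts. The step that summed transcripts to genes is not given in the sources used here. Reads shared by near-identical transcripts are split by kallisto's estimate, which can move low counts such as those of *Mertk* and *Mst1r*.

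Counts were filtered with filterByExpr and scaled with TMM in edgeR 4.0.16 (R 4.3.3). Its quasi-likelihood test was run on the 17672 remaining genes, with Benjamini-Hochberg adjustment over all of them and a threshold of 0.05. The clones were compared with the control and each other in a fit with 3 groups, and pooled against the control in a fit with 2 groups. Standard errors were taken from the fold change and its F value, and intervals are 95%. Levels are CPM on TMM-scaled library sizes, and log2 fold changes use the default prior count of edgeR. The log2 levels behind the pattern distances use a prior count of 2, and ratios use a pseudocount of 0.5. Lengths are means over coding transcripts of the GENCODE annotation of GRCm38. Tested on simulated data for Vcam1KO1 against Vcam1ctrl with 200 of 16316 genes changed 2-fold, the test recovered 87, all in the right direction, with 7 false calls. In the data themselves 59.9% of the tested genes passed in this comparison. The simulation therefore does not show how the test behaves at such a share of changed genes.

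The libraries held 53415907 to 125223073 counts, and the spread between libraries, more than counting, limits the precision. They are numbered 1 to 3 within a group as names only. The study describes them as different passages, and nothing shows separate derivations of the control or a clone, so the p-values measure the spread between these libraries. The 9 genes and the partner and marker lists were chosen with earlier results of these data known. Named are the 9 genes, *Vcam1*, the 2 highest and 2 lowest genes of each partner list among those with a mean of at least 1 CPM that passed in the same direction in both clones, and the 3 genes nearest in pattern to each of the 9. Single genes of the marker lists and *Mst1* are named as well, and no such rule picked them. Alternatives were limma-voom (limma 3.58.1, the study's own test), DESeq2 1.42.0, upper-quartile scaling, no filter or a mean of at least 1 CPM, leaving out each library, fits on the 6 libraries compared, and the average of the clone contrasts. Upstream windows are from RefSeq.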

Additional observations from a re-analysis of the deposited data

Results flagged for a closer look

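Among the 6 libraries of the clones, replicate 3 of Vcam1KO1 lay far from the rest for *Mertk*: the gap to its neighbour took up 0.779 of the whole range. The limit it passed is exceeded by chance in about 1 in 20 groups, and this group joins 2 clones. The same library stood apart over all genes and held the lowest *Met* and *Hgf*.

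The clones differed from each other, in a direct test of Vcam1KO1 against Vcam1KO2, for 6 of the 9 genes. On the log2 scale with edgeR, *Gas6* was higher in Vcam1KO1 by 2.68, *Mst1r* by 2.62 and *Mertk* by 2.45, and *Hgf* was lower at −2.04, *Met* at −1.60 and *Tyro3* at −0.48. Every library of one clone lay on the same side of every library of the other for each of these 6. For *Mst1r*, *Mertk* and *Tyro3* both clones lay on the same side of the control and differed in size. Each clone is a single line, so a difference between clones and a difference in the effect of the *Vcam1* guide cannot be told apart.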

How the results depend on the processing

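Over the 9 genes and 4 comparisons, 536 values were recomputed under the alternatives, of which 470 kept direction and call, 32 lost the call, 12 gained it and 22 changed sign. The changes of *Ddr2* in both clones, of *Mst1r*, *Mertk* and *Tyro3* in Vcam1KO2 and of *Met*, *Hgf*, *Mertk* and *Gas6* in Vcam1KO1 held under all alternatives in which they were tested. For *Mertk* the reservation about the filter on low counts stays in place. *Tyro3* in Vcam1KO1 did not pass without a filter (adjusted p = 0.101) or on the 6 libraries compared (0.0675), and between the clones it did not pass with upper-quartile scaling (0.0837), without a filter (0.104), with the filter at 1 CPM (0.0581) or on the 6 libraries (0.0505). Sign changes fell on values that had not passed. *Axl* in Vcam1KO1 was −0.0067 with DESeq2 and −0.026 without a filter, and −0.18 to 0.20 when each library was left out. In Vcam1KO2 *Axl* was −0.019 with upper-quartile scaling and −0.13 to 0.21 over left-out libraries. Between the clones *Axl* was 0.066 with upper-quartile scaling, which moved the median of all genes to 0.11, 0.031 with the filter at 1 CPM and −0.11 to 0.034 over left-out libraries. With the clones pooled *Axl* was −0.0061 without a filter, where the median of all genes was also 0.11, and −0.16 to 0.21 over left-out libraries. *Ddr1* between the clones was 0.052 with upper-quartile scaling, 0.018 with the filter at 1 CPM and −0.14 to 0.14 over left-out libraries. *Gas6* in Vcam1KO2 ran from −0.86 to 0.087 over left-out libraries. The number of the 9 genes called with the clones pooled was 2 without a filter and 2 to 5 over left-out libraries. *Met* and *Hgf* in Vcam1KO2 passed on the 6 libraries compared (adjusted p = 0.00771 and 0.0303), *Hgf* there also with DESeq2 (0.0408). Pooled, *Met* passed with DESeq2 (0.0445) and the average of the clone contrasts (−1.55, 0.00567), and *Hgf* with limma-voom (0.0339) and that average (−1.71, 0.000658). *Mst1r* was too low to be tested with the filter at 1 CPM. No paired analysis was possible because the groups share no replicate numbers in the labels. The depth put the limit of detection at 0.0239 to 0.0554 CPM, close to *Mertk* in Vcam1ctrl and *Mst1r* in Vcam1KO2.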
